A study of Homo sapiens with 4 samples.

Results

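The 38 HOX genes examined here lie in 4 clusters, HOXA on chromosome 7, HOXB on chromosome 17, HOXC on chromosome 12 and HOXD on chromosome 2. AMO1, a human multiple myeloma cell line, was assayed by ATAC-seq, which marks accessible chromatin by where the Tn5 enzyme can insert adapters. All peaks within 5 kb of a listed gene, or between the first and the last listed gene of a cluster, were taken, whatever their values. They formed 46 HOX regions of 73729 regions in the genome: 11 in cluster A, 14 in B, 11 in C and 10 in D.

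The series holds 4 libraries, 1 per group. The PHF19 overexpression library came from AMO1 cells transfected with a PCDH vector carrying PHF19, and the empty vector library from AMO1 cells transfected with the PCDH vector alone. The IFN PHF19 overexpression and IFN empty vector libraries carry the same labels with the prefix IFN in their titles, which the labels do not explain. No time after transfection and no level of PHF19 was available here, and accessibility does not measure that level. With 1 library per group no difference had a replicate check, no p-value was computed, and every difference given compares libraries. The libraries held 18.2 M fragments for PHF19 overexpression, 27.4 M for empty vector, 16.4 M for IFN PHF19 overexpression and 65.9 M for IFN empty vector (M, mega fragments in the file headers). All 9 plasma cell markers had a peak within 1 kb of a gene end in every library and none of 6 myeloid markers had one. Over the same libraries 5 of 6 stromal and epithelial markers had such a peak in the PHF19 overexpression library and 4 of 6 in the empty vector library, against 5 of 6 in each IFN library. In the library order of the fragment counts above, 2, 3, 2 and 5 of 6 T and NK cell markers had such a peak. In that order 1, 3, 1 and 3 of 5 erythroid markers and 0, 1, 0 and 1 of 4 B cell markers had one.

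HOX genes encode homeodomain transcription factors that set position along the body axis, and paralogue groups 1 to 13 run in the same order along each cluster. Anterior genes carry low group numbers and posterior genes high ones. In differentiated cells much of each cluster is kept silent by Polycomb repressive complex 2, PRC2, which methylates histone H3 at lysine 27. PHF19 is a subunit of that complex that binds methylated lysine 36 of histone H3, and it is known as a marker of high-risk multiple myeloma. Selected HOX genes, HOXA9 among them, are known for their expression in leukaemia.

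HOX regions overlapped the promoter window of 5 genes of the 20 that the RefSeq promoter table (GRCh38.p14) holds. The listed genes outside those 20 have no start there, so whether a region lies over their starts could not be looked up. The 5 windows that a HOX region overlapped are shown. Each runs from 250 bases before to 50 bases after the start, 5′ to 3′ on the strand of the gene, and capitals mark CG dinucleotides, the sites of DNA methylation.
HOXA3 promoter: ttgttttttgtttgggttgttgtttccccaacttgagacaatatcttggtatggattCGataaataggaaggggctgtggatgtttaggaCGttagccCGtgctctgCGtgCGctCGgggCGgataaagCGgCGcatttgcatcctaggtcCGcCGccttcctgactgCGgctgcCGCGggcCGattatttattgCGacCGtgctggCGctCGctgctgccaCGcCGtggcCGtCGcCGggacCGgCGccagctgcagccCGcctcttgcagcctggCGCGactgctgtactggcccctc
HOXA10 promoter: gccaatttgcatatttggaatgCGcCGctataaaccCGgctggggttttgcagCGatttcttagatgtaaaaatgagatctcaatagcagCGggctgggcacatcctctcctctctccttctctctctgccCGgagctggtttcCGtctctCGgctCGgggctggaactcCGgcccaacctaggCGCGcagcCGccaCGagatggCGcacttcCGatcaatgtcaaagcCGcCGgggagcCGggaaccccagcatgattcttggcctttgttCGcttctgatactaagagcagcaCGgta
HOXA13 promoter: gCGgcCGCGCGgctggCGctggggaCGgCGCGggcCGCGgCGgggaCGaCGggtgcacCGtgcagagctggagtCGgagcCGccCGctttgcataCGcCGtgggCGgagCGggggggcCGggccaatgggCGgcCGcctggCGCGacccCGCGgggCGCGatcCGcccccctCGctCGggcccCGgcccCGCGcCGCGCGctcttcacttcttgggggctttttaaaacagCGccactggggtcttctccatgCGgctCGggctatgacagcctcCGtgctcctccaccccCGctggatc
HOXD4 promoter: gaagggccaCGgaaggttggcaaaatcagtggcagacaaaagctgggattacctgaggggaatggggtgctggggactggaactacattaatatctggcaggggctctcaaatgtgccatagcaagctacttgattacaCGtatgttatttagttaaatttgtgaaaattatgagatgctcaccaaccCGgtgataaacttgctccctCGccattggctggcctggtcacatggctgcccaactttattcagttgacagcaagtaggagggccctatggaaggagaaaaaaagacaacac
HOXD11 promoter: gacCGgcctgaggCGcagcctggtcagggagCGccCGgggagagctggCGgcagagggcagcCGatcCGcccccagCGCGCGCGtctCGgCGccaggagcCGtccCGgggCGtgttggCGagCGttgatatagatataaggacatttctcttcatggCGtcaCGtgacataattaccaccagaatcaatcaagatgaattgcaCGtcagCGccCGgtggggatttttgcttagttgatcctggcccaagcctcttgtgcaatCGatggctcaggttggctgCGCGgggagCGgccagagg
The windows lie at chr7:27150901-27151200 for HOXA3, chr7:27179812-27180111 for HOXA10 and chr7:27200042-27200341 for HOXA13, all on the minus strand. Those of HOXD4 (chr2:176151300-176151599) and HOXD11 (chr2:176107030-176107329) are on the plus strand. The HOXD11 window was overlapped over 126 bp and the other windows over all 300 bp.

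The 5 windows differed in base composition. HOXA13 had 44 CG dinucleotides and 76.3% G and C, and HOXD4 had 4 CG and 47.3%. HOXA3 had 29 CG, HOXD11 had 27 and HOXA10 had 21. Their median of 27 CG stood beside a median of 22 (0 to 36) over 21 HOX windows that no region overlapped and 14 over all 34943 promoter windows. TAAT, the core of many homeodomain sites, occurred 5 times in the HOXD4 window, 2 times in HOXD11 and 1 time in HOXA3 on either strand, and not in HOXA10 or HOXA13, against at least 1 match in 50.3% of all windows. A core of the motif of the insulator protein CTCF matched only the HOXA10 window of these 5, against 10.6% of all windows. TATAAA also matched only HOXA10 of these 5, against 11.6% of all windows, and TGANTCA, the AP-1 motif, matched none of them, against 7.72%. GCGC occurred 9 times in HOXA13, 8 in HOXD11, 5 in HOXA3, 4 in HOXA10 and 0 in HOXD4, against 57.1% of all windows with a match. Motifs were read on both strands, CG and GCGC can overlap each other, and a match is a description of letters only.

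HOX clusters also hold microRNA genes, and the hairpins of 2 of them lay inside HOX regions. MIR196A1 lies between HOXB9 and HOXB13 and MIR615 inside HOXC5 and HOXC4. Their mature RNAs are shown with that of MIR196B of cluster A, 5′ to 3′, with the seed (bases 2 to 8), which pairs with target mRNAs, in capitals.
hsa-miR-196a-5p: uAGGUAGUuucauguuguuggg
hsa-miR-196a-1-3p: cAACAACAuuaaaccacccga
hsa-miR-196b-5p: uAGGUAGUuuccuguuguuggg
hsa-miR-615-5p: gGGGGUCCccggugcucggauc
hsa-miR-615-3p: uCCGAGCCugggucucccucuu
The 5p arms of miR-196a and miR-196b share their seed, and those of miR-615 differ from it. HOX mRNAs, HOXB8 among them, are known targets of miR-196. MIR196B lay 1812 bp from the nearest HOX region.

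HOX chromatin was accessible in all 4 libraries and largely at the same places. Of the 46 HOX regions 37 (80.4%) had a peak in every library, against 48.5% of all regions. Another 4 had one in 3 libraries, 2 in 2 libraries and 3 in 1 library (6.52%, against 26.3% of all regions). The share in every library was 9 of 11 regions in cluster A, 13 of 14 in B, 8 of 11 in C and 7 of 10 in D. Peaks covered 4.75% to 8.80% of each cluster span, counted per cluster and library, against 1.20% to 2.06% of the genome. The covered length was highest in the deepest library, IFN empty vector, in each of the 4 clusters, and depth sets how weak a peak can be called: the lowest peaks had 8 and 10 fragments in the PHF19 overexpression and empty vector libraries, and 8 and 16 fragments in the IFN PHF19 overexpression and IFN empty vector libraries.

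Height, the number of fragments over the summit divided by the fragments of the library in M, is used as the level of a region. The median height of HOX peaks was 3.15 and 2.74 fragments per M in the PHF19 overexpression and empty vector libraries, and 3.05 and 2.22 in the IFN PHF19 overexpression and IFN empty vector libraries. Over all peaks the medians were 1.92 and 1.75 fragments per M, and 2.08 and 1.06. The median HOX peak was thus taller than the median peak in each library, while the lowest HOX peaks, at 0.42 to 0.88 fragments per M, lay below it. The shares of regions with a peak in every library, given above, were not matched for height.

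**Figure D1:**
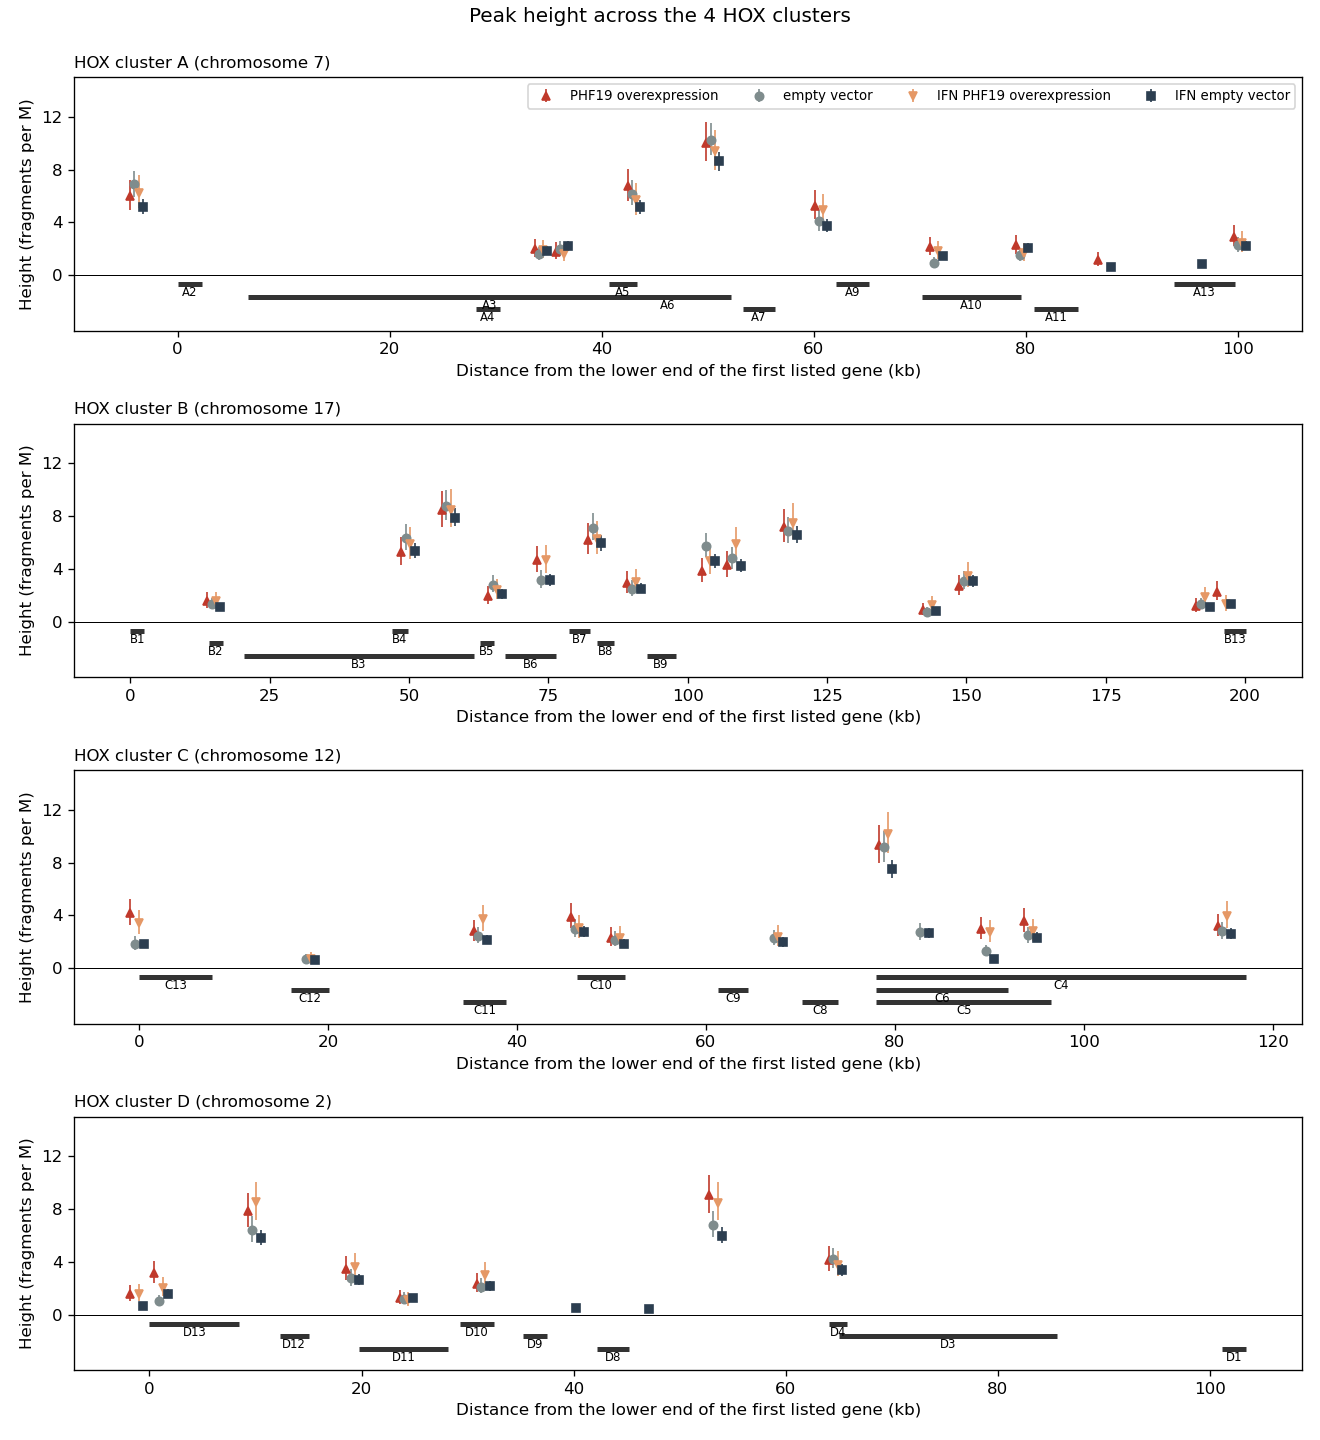
Height of each HOX region in fragments per M (vertical axis) against its distance in kb from the lower end of the first listed gene (horizontal axis), 1 panel per cluster. Markers are the 4 libraries, set slightly apart, vertical lines are exact 95% Poisson intervals of the fragment count, and bars under each panel are the genes with HOX left off their names. The tall regions recur in all 4 libraries, and most of the HOXD3 to HOXD1 stretch and most of the HOXA2 to HOXA4 stretch hold none.

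The map of heights shows where the clusters were closed. Counting gene bodies alone, 24 of 38 genes held a region, and 22 of them held one found in every library. The 14 genes with none were HOXA2, HOXA4, HOXA6, HOXA7, HOXA9, HOXA11, HOXB1, HOXB9, HOXC8, HOXC9, HOXD1, HOXD8, HOXD9 and HOXD12. With 5 kb on either side 36 genes had a region, and only HOXB1 and HOXD1, the most anterior listed genes of their clusters, had none. HOXC9, HOXC12 and HOXD8 had regions nearby but none found in every library. The longest stretch without a region was 33.8 kb in cluster A, over HOXA2, HOXA4 and part of HOXA3, 37.8 kb in cluster D, over HOXD1 and most of HOXD3, and 41.7 kb in cluster B, between HOXB9 and HOXB13. In cluster C it was 18.7 kb, inside HOXC4. The lists hold only peaks above the calling threshold, so a gap is a stretch without a call and not a measured 0.

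The region of each cluster with the highest mean height over the 4 libraries had a peak in every library and passed 1.5-fold in neither pair. In cluster A it lay over a start of HOXA3, whose promoter window is printed above, with 183 fragments in the PHF19 overexpression library and 281 in the empty vector library, and 154 and 568 in the IFN PHF19 overexpression and IFN empty vector libraries. Those counts were 10.0 and 10.3 fragments per M, and 9.40 and 8.62. In cluster B it lay inside HOXB3, a gene of hindbrain patterning, with 154 and 240 fragments, and 139 and 519 in the IFN pair. In cluster C it lay just inside the shared lower end of HOXC4, HOXC5 and HOXC6, with 170 and 251 fragments, and 167 and 493 in the IFN pair. In cluster D it lay between HOXD8 and HOXD4, 7748 bp from HOXD8, with 165 and 186 fragments, and 139 and 395 in the IFN pair. Ratios of height are given on the log2 scale with the median of all regions called in both libraries set to 0, and with exact 95% intervals that cover counting error only. For PHF19 overexpression over empty vector they were 0.08 (-0.20 to 0.35) at HOXA3, 0.06 (-0.24 to 0.36) at HOXB3 and 0.14 (-0.15 to 0.42) at HOXC4, and 0.52 (0.21 to 0.83) at the HOXD region. In the IFN pair they were -0.04, -0.06, 0.28 (0.02 to 0.54) and 0.33 (0.05 to 0.62) in the same order. Only the HOXD region had intervals above 0 in both pairs, and in the IFN PHF19 overexpression library the region between HOXD13 and HOXD12 was slightly taller, at 8.55 fragments per M against 8.49.

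Between PHF19 overexpression and empty vector, HOX regions were higher on balance with PHF19 overexpression. Of 37 regions called in both libraries 28 were above 0 and 9 below, with a median log2 ratio of 0.29, from -0.47 to 1.67, beside a median of 0 over all 38367 such regions. Past 1.5-fold were 7 HOX regions higher (18.9%) and 0 lower, where 12.8% of all regions were higher and 9.16% lower. The interval lay above 0 at 11 HOX regions and below 0 at 1, against 9.65% and 12.5% of all regions. The 7 regions lay inside HOXA10, at a start of HOXA10, inside HOXB6, at HOXC13, inside HOXC6, HOXC5 and HOXC4, over MIR615, and in HOXD13.

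Cluster B had the lowest median of the 4 clusters in this pair. The median log2 ratio was 0.41 in cluster A (n = 9 regions), 0.40 in C (n = 8) and 0.40 in D (n = 7), and -0.05 in B (n = 13). All 8 regions of cluster C and all 7 of D were above 0, against 7 of 9 in A and 6 of 13 in B. The regions within 2.5 Mb of each cluster, the cluster itself left out, had medians of -0.17 beside A, -0.02 beside B, -0.00 beside C and 0.19 beside D. Measured against these surroundings, clusters A and C lay furthest above them, and in cluster D part of the height ratio was shared with the surrounding chromosome.

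In the IFN pair the median also lay above 0. Of 41 HOX regions called in both libraries 27 were above 0, with a median of 0.11 beside 0 over all 43106 regions. Past 1.5-fold were 4 HOX regions higher (9.76%), where 11.8% of all regions were, and 1 lower (2.44%), where 10.9% were. The share higher was close to that of all regions. Centring set the order of the pairs: without it the median was 0.18 with 5 regions higher in the first pair, where the regions in HOXB6 and over MIR615 were no longer past 1.5-fold, and 0.28 with 7 higher in the IFN pair. The median was -0.04 in A (n = 9), 0.03 in B (n = 14), 0.22 in C (n = 10) and 0.28 in D (n = 8). The surroundings had -0.09, -0.05, -0.02 and 0.25, so that in cluster D the regions stood close to their surroundings. In this pair the stromal and epithelial marker regions had a median of 0.66, with 4 of 7 past 1.5-fold higher, against -0.08 and 0 of 4 in the other pair. The summed height of that list was 16.5 and 14.8 fragments per M in the PHF19 overexpression and empty vector libraries, and 20.8 and 13.6 in the IFN pair, and CDH1 of that list had no peak in any library. Its part in the HOX values was not tested.

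**Figure D2:**
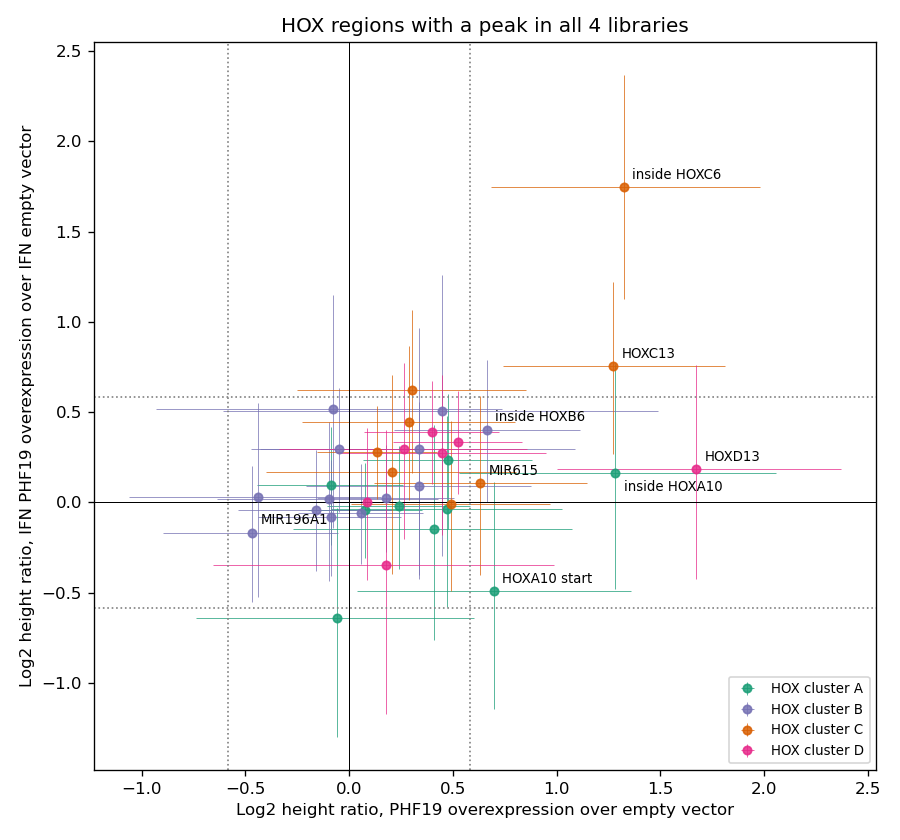
Log2 height ratio of PHF19 overexpression over empty vector (horizontal axis) against that of IFN PHF19 overexpression over IFN empty vector (vertical axis) for the 37 HOX regions with a peak in all 4 libraries. Points are regions coloured by cluster, lines are exact 95% intervals for counting error, and dotted lines mark 1.5-fold; the 2 regions beyond it in both pairs lie at HOXC13 and inside HOXC6.

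The 2 pairs share no library and can be set side by side. Over the 37 HOX regions with a peak in all 4 libraries, 20 were above 0 in both pairs, 4 were below in both and 13 had opposite signs. Pearson's r was 0.46 and Spearman's rho 0.39 across these regions, against 0.63 and 0.57 across all 35731 regions. Regions are not independent replicates, and within a pair they share their libraries. Past 1.5-fold higher in both pairs were 2 HOX regions (5.41%), where 4.16% of all regions were, and 0 were lower in both, where 5.36% were.

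The region with the highest ratio in the IFN pair lay inside the overlapping spans of HOXC6, HOXC5 and HOXC4, at chr12:54028312-54029053. These genes are the most anterior of cluster C, and HOXC4 is known for its expression in lymphoid cells. The region had 54 fragments in the PHF19 overexpression library and 35 in the empty vector library, and 45 and 48 in the IFN PHF19 overexpression and IFN empty vector libraries. In fragments per M these were 2.96 and 1.28, and 2.75 and 0.73, so that both PHF19 overexpression libraries stood above both empty vector libraries with intervals that did not overlap. The log2 ratio was 1.32 (0.68 to 1.98) in the first pair and 1.75 (1.13 to 2.37) in the IFN pair, and the 2 ratios differed by 0.43 (-0.42 to 1.27). Set against the regions within 2.5 Mb they were 1.32 and 1.76. With peaks at a q of 1e-05 only, the weak peak of the IFN empty vector library, at 2.04 times its local background in the authors' fold enrichment, was not kept, and the region then had no ratio in the IFN pair.

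HOXC13, a posterior gene known for its role in hair and nail formation, had the other such region. It spans the lower end of the gene at chr12:53938344-53938866. It had 76 fragments in the PHF19 overexpression library and 51 in the empty vector library, and 56 and 119 in the IFN pair. The heights were 4.17 and 1.86 fragments per M, and 3.42 and 1.81, and here too both PHF19 overexpression libraries were above both empty vector libraries. The mean fragment coverage of the surrounding 10 kb, recovered from the fold enrichment of each peak and containing the peak itself, was 0.32 and 0.18 fragments per M, and 0.31 and 0.18. This background ratio was 0.93 and 0.73 on the log2 scale, beside 0.66 and 0.44 at the region inside HOXC6.

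A peak of the empty vector libraries was missing from both PHF19 overexpression libraries 6262 bp away from the first of these regions, in the same gene bodies, at chr12:54021510-54022049. It had 75 fragments in the empty vector library (2.74 per M) and 174 in the IFN empty vector library (2.64 per M). Among all 73729 regions 6367 (8.64%) had this pattern and 430 (0.583%) the opposite one, a peak in both PHF19 overexpression libraries and neither empty vector library, which no HOX region had. Both empty vector libraries were deeper than both PHF19 overexpression libraries, so vector and depth cannot be told apart in these shares. The lower of the 2 heights was a median of 0.62 over the 6367 regions, and 169 of them reached that of the HOXC region. It stood on high ground, with 2.89 times and 3.20 times its local background in the authors' fold enrichment. At the same height after centring 46.3 fragments would have stood there in the PHF19 overexpression library and 48.6 in the IFN PHF19 overexpression library. Expected numbers like these include the centring shift of the pair. The lowest calls of these libraries, among peaks with a local background per M within 10% of that of the called peak, had 33 and 27 fragments. A peak is also not called below a minimum length, the mean fragment length of 273 and 269 bp in these libraries, and the called peaks were 333 bp and 540 bp long.

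**Figure D3:**
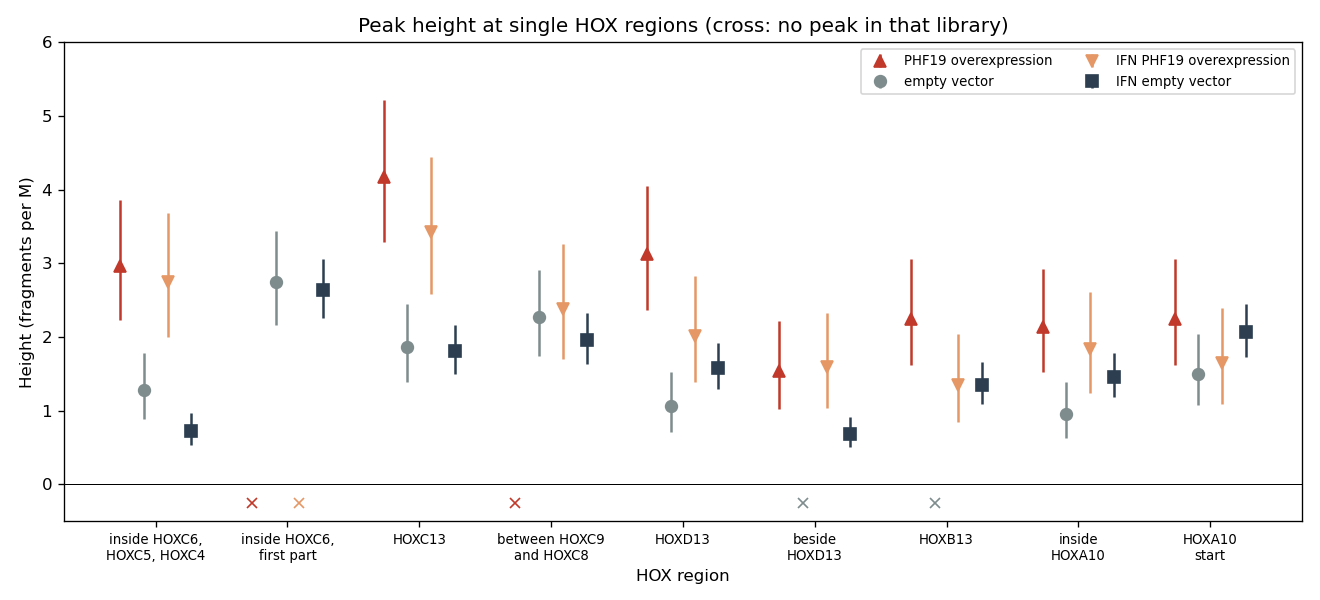
Height in fragments per M (vertical axis) at 9 HOX regions (horizontal axis) in the 4 libraries. Lines are exact 95% Poisson intervals and crosses under the axis mark a library with no peak; at HOXC13 and inside HOXC6, HOXC5 and HOXC4 both PHF19 overexpression libraries lie above both empty vector libraries.

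HOXD13, a posterior gene that patterns the digits, held the region with the highest ratio of the first pair, at chr2:176088104-176089046. It lies in the gene span but outside the promoter window of the annotated start. It had 57 fragments in the PHF19 overexpression library and 29 in the empty vector library, and 33 and 104 in the IFN pair. The heights were 3.13 and 1.06 fragments per M, and 2.02 and 1.58, and the heights of the IFN pair lay between those of the first pair. The log2 ratio was 1.67 (1.0 to 2.37) in the first pair and 0.19 (-0.43 to 0.76) in the IFN pair, where it was -0.06 against the surrounding 2.5 Mb. The IFN ratio minus the first was -1.49 (-2.34 to -0.63). The background ratio was 1.34 in the first pair, the highest of the 37 HOX regions.

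The stretch beside HOXD13 held 2 further regions. One, 879 bp from its lower end at chr2:176085990-176086608, had 28 fragments with PHF19 overexpression and no peak with empty vector, and 26 and 45 fragments in the IFN pair. Its IFN ratio was 1.05 (0.29 to 1.78), and 0.80 against the surroundings. In the empty vector library the same height after centring would have given 45.4 fragments where the lowest call at a like background had 20. The other lay between HOXD13 and HOXD12 and had 143 and 176 fragments, and 140 and 383 in the IFN pair, with ratios of 0.40 (0.07 to 0.72) and 0.39 (0.10 to 0.67). With the mean over the summits in place of the tallest these were -0.14 and -0.08, so their direction depends on which summit is read.

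The other 2 group 13 genes passed 1.5-fold in neither pair where both libraries had a peak. HOXA13, a gene of limb and urogenital development, had 53 and 62 fragments over its start in the PHF19 overexpression and empty vector libraries, and 40 and 147 in the IFN pair, with ratios of 0.47 (-0.09 to 1.02) and -0.04 (-0.58 to 0.48). A second region inside HOXA13 was called with IFN empty vector and in no other library, at 55 fragments (0.83 per M). At that height after centring 15.3 fragments would have stood in the IFN PHF19 overexpression library and 24.2 in the empty vector library. The lowest calls there at a like background had 13 and 18. HOXB13, known for prostate and hindgut expression, had 41 fragments with PHF19 overexpression and no peak with empty vector, and 22 and 89 in the IFN pair, with a ratio of -0.17 (-0.92 to 0.51) there. At the height of the PHF19 overexpression peak after centring 66.5 fragments would have been in the empty vector library. The lowest call there at a like background had 19. The HOXB13 region lies at the lower end of the gene and also overlaps PRAC2, so its signal cannot be given to one gene.

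HOXA10, a posterior gene of the uterus and of blood progenitors, held 2 regions that passed 1.5-fold in the first pair and lay under it in the IFN pair. The one inside the gene had 39 and 26 fragments in the PHF19 overexpression and empty vector libraries, and 30 and 96 in the IFN pair, with ratios of 1.28 (0.53 to 2.06) and 0.16 (-0.48 to 0.77). The IFN ratio minus the first was -1.12 (-2.05 to -0.19). The other lay over 1 of the 2 HOXA10 starts in the promoter table, the one printed above, and no region overlapped the window of the other start. The region over the start had 41 and 41 fragments, and 27 and 136 in the IFN pair, with ratios of 0.70 (0.04 to 1.36) and -0.49 (-1.14 to 0.11). There the IFN ratio minus the first was -1.19 (-2.05 to -0.33). Both regions also lie in the readthrough gene HOXA10-HOXA9.

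The windows of HOXD4 and HOXD11, also printed above, lay under regions that passed 1.5-fold in neither pair. At HOXD4, an anterior gene of the hindbrain, the region had 76 and 116 fragments in the PHF19 overexpression and empty vector libraries, and 62 and 222 in the IFN pair, with ratios of 0.09 (-0.35 to 0.52) and 0.00 (-0.43 to 0.41). At HOXD11, a gene of the forearm, it had 63 and 75 fragments, and 59 and 175 in the IFN pair, with ratios of 0.45 (-0.06 to 0.95) and 0.27 (-0.18 to 0.71).

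HOX regions can also be split by paralogue group. In clusters A, C and D the regions nearest to genes of groups 9 to 13 had a median log2 ratio of 0.47 in the first pair, and all 13 were above 0. Those nearest to groups 1 to 8 had 0.24, with 9 of 11 above 0. In the IFN pair the medians were 0.19 (n = 15) and 0.10 (n = 12), with 10 and 8 above 0. Over all 4 clusters the medians were 0.37 (16 of 20 above 0) and 0.14 (12 of 17) in the first pair, and 0.17 (16 of 23) and 0.06 (11 of 18) in the IFN pair. The split and the choice of clusters were made with these values known.

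The microRNA regions went separate ways in the first pair. The MIR196A1 region, also over HOXB-AS4, had 70 and 157 fragments in the PHF19 overexpression and empty vector libraries, and 75 and 302 in the IFN pair, with ratios of -0.47 (-0.90 to -0.05) and -0.17 (-0.55 to 0.20). It was the HOX region with the lowest ratio of the first pair and the only one with an interval below 0. The MIR615 region had 65 and 68 fragments, and 46 and 153 in the IFN pair, with ratios of 0.63 (0.12 to 1.14) and 0.11 (-0.40 to 0.59). In cluster B a region inside HOXB6 had 85 and 87 fragments, and 76 and 206 in the IFN pair, with ratios of 0.66 (0.22 to 1.11) and 0.40 (0.00 to 0.79). The region shared by HOXC11 and HOTAIR, a long noncoding RNA that binds PRC2, had 51 and 67 fragments, and 61 and 142 in the IFN pair, with ratios of 0.30 (-0.25 to 0.85) and 0.62 (0.16 to 1.06). The one HOX region past 1.5-fold lower in a PHF19 comparison lay inside HOXA3, with 26 fragments in IFN PHF19 overexpression and 145 in IFN empty vector, a ratio of -0.64 (-1.30 to -0.03).

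The 10 kb background contains the peak itself and its neighbours, so that its ratio is not independent of the summit ratio. It had a median of 0.25 in the first pair, with 34 of 37 HOX regions above 0, and 0.12 in the IFN pair, with 33 of 41 above 0, where regions above the genome floor had a median of 0. By cluster it was 0.18 in A, 0.08 in B, 0.35 in C and 0.44 in D in the first pair, and 0.06, 0.07, 0.25 and 0.33 in the IFN pair. Beside the clusters it was -0.12, -0.03, -0.02 and 0.24, and -0.14, -0.03, -0.00 and 0.23. In both pairs cluster D had the highest background ratio, and the 2.5 Mb around it the highest of the 4 surroundings. Fewer cells with an open region and fewer cuts per cell cannot be told apart in bulk libraries.

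**Figure D4:**
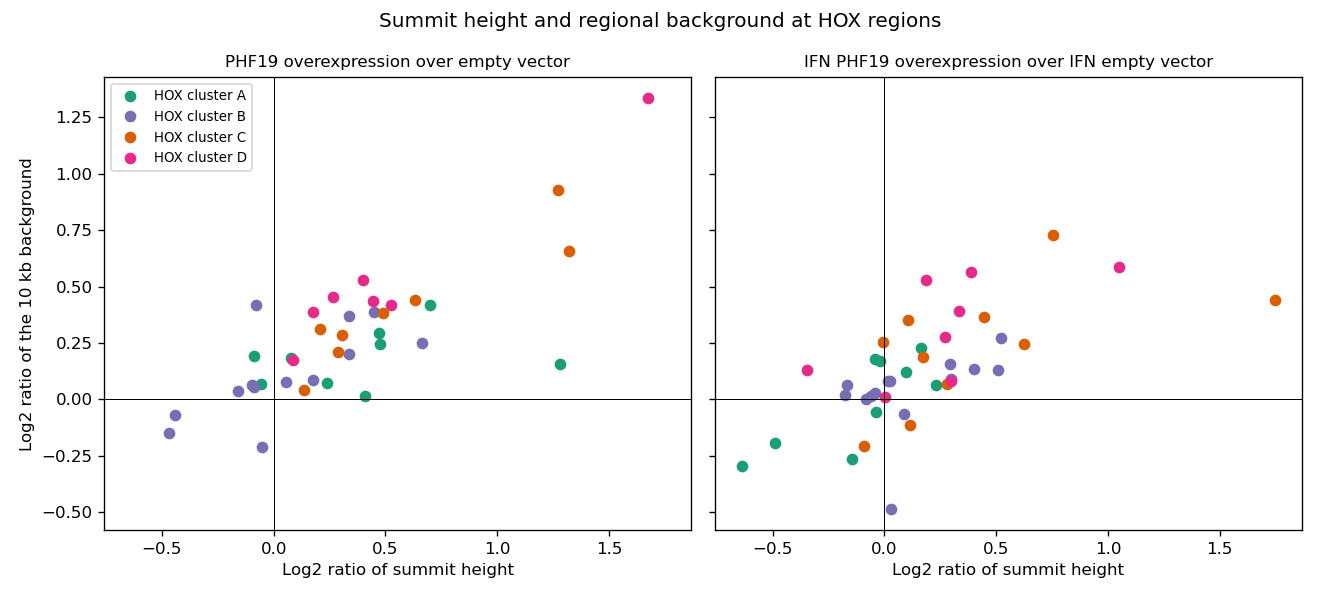
Log2 ratio of the mean fragment coverage of the 10 kb around a HOX region (vertical axis) against the log2 ratio of its summit height (horizontal axis), for PHF19 overexpression over empty vector on the left and IFN PHF19 overexpression over IFN empty vector on the right; the 10 kb contain the peak itself. Points are regions coloured by cluster, and most lie above 0 on the vertical axis in both panels.

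Peaks found in 1 library of a pair were few in the HOX clusters. In the first pair 3 of 40 HOX peaks (7.5%, 95% Wilson interval 2.58% to 19.9%) were found with PHF19 overexpression alone, where 12% of all its peaks were, and 3 of 40 with empty vector alone, where 21.5% were. The Wilson interval treats the peaks of 1 library as independent and covers no spread between replicate libraries. The PHF19 overexpression peaks lay at HOXB13, beside HOXD13 and 2207 bp from HOXA11. The empty vector peaks lay inside HOXC6, between HOXC9 and HOXC8 and inside HOXC12. The one between HOXC9 and HOXC8 had 62 fragments in empty vector, and 39 and 129 in the IFN pair, where its ratio was 0.12 (-0.44 to 0.64). At its height after centring 38.2 fragments would have been in the PHF19 overexpression library, where the lowest call at a like background had 17. In the IFN pair 0 of 41 HOX peaks were found with IFN PHF19 overexpression alone, where 4.48% of all its peaks were, and 5 of 46 (10.9%) with IFN empty vector alone, where 38.2% were. Of these 5, all but the one inside HOXC6 lay close to what the depth of the IFN PHF19 overexpression library allows. Beside HOXD9 and HOXD8, 9.77 and 7.81 fragments would have stood there after centring, where the lowest calls at a like background had 8 and 9. Near HOXA11 and inside HOXA13 it would have been 11.2 and 15.3 fragments, where the lowest calls had 9 and 13.

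Between IFN-prefixed and other libraries of the same vector HOX regions differed little. With empty vector, 40 HOX regions had a median log2 ratio of -0.04, IFN over not, with 2 past 1.5-fold higher, where 6.21% of all regions were, and 1 lower, where 1.81% were. The higher ones lay inside HOXA10 (0.70, 0.06 to 1.39) and in HOXD13 (0.66, 0.05 to 1.31), and the lower one inside HOXC6, HOXC5 and HOXC4 (-0.73, -1.39 to -0.06). With PHF19 overexpression, 39 regions had a median of -0.11, 27 of them below 0, with 0 higher, where 6.65% of all regions were, and 2 lower, where 3.64% were. The lower ones lay at HOXB13 (-0.86, -1.68 to -0.08) and HOXD13 (-0.75, -1.41 to -0.11). All 9 regions of cluster A were below 0, with a median of -0.26, beside 0.04 in the surroundings. Centring removed shifts of -0.09 and 0.11, as large as these medians, and without it the second was 0.0066. Past 1.5-fold with both vectors were 0 of 37 HOX regions higher, where 0.792% of all regions were, and 0 lower, where 0.0532% were. Each of these comparisons shares its libraries with the PHF19 comparisons above, so a region high in one library enters both. Of the IFN empty vector peaks 6 of 46 were found in that library alone, where 31.6% of all its peaks were, and of the empty vector peaks 0 of 40, where 2.04% were. With PHF19 overexpression 2 of 41 HOX peaks were found in the IFN library alone, where 15.7% were, and 1 of 40 in the other alone, where 12.6% were. Since IFN empty vector is the deepest library, the prefix and depth cannot be told apart with empty vector.

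Genes that work with HOX proteins or control them are given for comparison, by the regions within 1 kb of their ends. Among 10 genes for TALE cofactors, the PBX, MEIS and related homeodomain partners of HOX proteins, 0 of 8 regions passed 1.5-fold in the first pair and 0 of 9 in the IFN pair, with medians of -0.06 and 0.05. Among 20 upstream regulators 1 of 19 and 1 of 20 passed higher and 0 lower, with medians of -0.04 and 0.04. PRC2 genes had medians of -0.20 and -0.17, with 1 of 11 and 0 of 11 past 1.5-fold lower. Other homeobox genes outside the clusters had 3 of 8 and 2 of 9 regions past 1.5-fold higher and 0 lower, with medians of 0.20 and 0.24. Genes that flank the clusters had medians of -0.04 and 0.09, with 1 of 14 and 0 of 12 higher and 0 lower. The region of PRAC1, a gene of that list, is the HOX region 3408 bp from HOXB13. The noncoding RNAs within the clusters had 0.40 and 0.13, with 1 of 6 higher in each pair. Those 6 regions are HOX regions already counted above, so this list is not a separate comparison. Over all regions 12.8% and 11.8% were higher in the first and the IFN pair.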

How the data were processed

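ATAC-seq peak lists of 4 AMO1 libraries, 1 per group, were analysed. The authors called peaks in each library on its own with MACS2 2.1.2, using fragments of read pairs, no control library and a q of 0.01, keeping duplicates and splitting summits, per the file headers. Trimmomatic 0.38, bcl2fastq 2.17, DiffBind and hg38 are named in the submitters' processing notes. Which aligner, read filters and Tn5 shift were applied is not given in the sources used here. Pileup, as deposited, is signal: unscaled fragment coverage at a summit. Each peak's -log10 p-value, -log10 q-value and fold enrichment ratio were computed by the authors; q-values served here to filter and rank peaks within a list, and the fold enrichment also to recover a local background. Intervals cover counting error only and treat fragments as independent. Because duplicates were kept, they may be too narrow even for that error.

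Here summits were collapsed to 1 peak per interval, peaks on chromosomes 1 to 22 and X were merged over the 4 libraries wherever they overlapped by at least 1 bp, and the tallest pileup of a library divided by its fragments in M was the height of a region. Log2 ratios were centred on the median of all regions called in both libraries, which removed shifts of -0.11 and 0.17 for the first and the IFN PHF19 comparison, and -0.09 and 0.11 for the IFN-prefix comparisons with empty vector and PHF19 overexpression. Fragments expected where a library had no peak were scaled by the fragments of both libraries and by the shift of the comparison. Intervals of ratios are exact 95% intervals of a ratio of 2 counts, and called means past 1.5-fold. Intervals of the IFN ratio minus the first are 95% normal approximations from the counts of the 4 libraries. The background per peak, the fragments at its summit plus 1, divided by the fold enrichment, less 1, contains the peak itself and was chosen as a measure after seeing the data. Gene spans, promoter and microRNA sequences are RefSeq's, GRCh38.p14, and all 38 genes matched by symbol. Checked on simulated counts for PHF19 overexpression against empty vector (38367 regions), 91% of regions with a true log2 ratio of 1 passed 1.5-fold, and 4.58% of unchanged regions passed it higher. The simulated counts held counting error only, so they do not show how often replicate libraries would differ past 1.5-fold. Python 3.11.15 was used.

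The members and gene lists were chosen with earlier results of these data known. Described in full were the tallest region of each cluster, regions past 1.5-fold in the same direction in both PHF19 or both IFN comparisons, the highest regions of 1 library alone, and regions at group 13 genes. The regions at HOXA10, HOXB6, HOXC11, HOXD4, HOXD11, the lower one in HOXA3, MIR196A1 and MIR615 and that between HOXD13 and HOXD12 were added after their values were seen.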

Additional observations from a re-analysis of the deposited data

Results flagged for a closer look

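At the HOXD13 region the IFN-prefixed library was higher than its partner with empty vector, 104 against 29 fragments, and lower with PHF19 overexpression, 33 against 57 fragments. On the centred log2 scale the ratios were 0.66 (0.05 to 1.31) with empty vector and -0.75 (-1.41 to -0.11) with PHF19 overexpression. The ratio with PHF19 overexpression minus that with empty vector was -1.41. With 1 library in each group this opposite movement was not tested.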

How the results depend on the processing

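No paired analysis was possible because the groups compared share fewer than 2 replicate numbers; a fit with the IFN prefix as a block was left out, since the labels do not say what the prefix is. Counts of regions past the fold follow the fold. At a log2 ratio of 0.32 in place of 0.58 PHF19 overexpression against empty vector gave 17 higher and 2 lower and the IFN pair 10 and 3, the IFN prefix gave 2 lower with empty vector, and 3 higher and 9 lower with PHF19 overexpression. At 2-fold 4 were higher in the first pair, 2 higher and 0 lower in the IFN pair, 0 either way for the IFN prefix with empty vector and 0 lower with PHF19 overexpression. Without centring the first pair had 5 higher with a median of 0.178, the IFN pair 7 higher and 0 lower with a median of 0.275, and the IFN prefix a median of -0.13 with 1 higher (empty vector) and 0.0066, a change of sign, with 1 higher (PHF19 overexpression). With the height trend removed the IFN prefix with empty vector had 0 higher, and with peaks at a q of 1e-05 it had 0 lower, while the region inside HOXC6 had no value in the IFN pair. Peaks of 1 library alone changed with the list: IFN PHF19 overexpression alone in the IFN pair was 1 with an overlap of 50%, 1 at a q of 1e-05 and 3 with lists of equal length, where IFN empty vector alone was 1. For the IFN prefix, empty vector alone was 1 at a q of 1e-05 and 2 with equal lists, where IFN empty vector alone was 1. At a q of 1e-05 IFN PHF19 overexpression alone was 1 and PHF19 overexpression alone 2. With the mean over summits the log2 ratio of the region between HOXD13 and HOXD12 was -0.139 in the first pair and -0.0791 in the IFN pair. The medians of both PHF19 comparisons kept their direction under every alternative run, though with gene bodies only the IFN median was 0.0011. Depth limits what an absent peak shows, since the libraries differ in fragments. The causes were not tested.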
